A study of Mus musculus with 9 samples.

Results

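Cytokine signalling through STAT transcription factors and its feedback inhibitors was examined in 10 genes: Stat3, Stat5a, Stat5b, Stat6, Socs1, Socs2, Socs3, Cish, Pim1 and Jak2. The genes were taken by symbol, with every probe set whose only annotated symbol was 1 of these names, and they made up 10 of the 18193 genes measured. They were represented by 25 probe sets: 6 for Socs2, 4 for Stat3, 3 for Socs3, 1 each for Socs1 and Cish, and 2 for each of the other 5 genes. RNA levels came from 9 Affymetrix mouse arrays, each hybridised with RNA from 1 myeloid population sorted by flow cytometry from the lungs of female 4get mice on the BALB/c background. A 4get mouse carries a green fluorescent reporter for Il4 expression. All mice were 6 to 8 weeks old and all received IL-25, a cytokine that drives type 2 inflammation, at 0.5 µg per day into the trachea for 4 days, so no untreated lung was compared. Each replicate pooled 4 donor mice after enrichment for CD11b.

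The 4 labels were T2M (type 2 myeloid cells, 3 arrays), Eosinophils, Neutrophils and Macrophages (2 arrays each). T2M cells were gated as reporter-positive and F4/80+, without the IL-5 receptor alpha chain, with low MHC class II and intermediate Gr-1. The other 3 gates were reporter-negative. Eosinophils were IL-5 receptor alpha-positive, F4/80-, MHCIIlo and Gr-1hi; Neutrophils were receptor-negative, F4/80-, MHCIIlo and Gr-1+; Macrophages were receptor-negative, F4/80+, MHCII+ and Gr-1-. The RNA did not follow these labels in full. Eosinophil markers (6 genes) averaged 8.59 to 9.07 on the log2 scale on T2M arrays, 5.58 to 6.20 on Eosinophil arrays, 4.27 to 6.57 on Neutrophil arrays and 4.25 to 4.33 on Macrophage arrays. Il5ra, the gene of the receptor chain that the T2M gate excluded, was at 7.18 to 8.05 on T2M arrays against 4.60 to 5.77 on Eosinophil arrays. Il4, whose reporter set the T2M gate, was at 7.69 to 9.80 on T2M arrays and at 4.67 to 6.43 on the others. For MHC class II, H2-Aa, H2-Ab1, H2-Eb1 and Cd74 were higher on both Macrophage arrays than on every T2M and Eosinophil array. On Neutrophil arrays, gated MHCIIlo, H2-Aa was at 11.90 and 12.67, against 12.38 and 12.43 on Macrophage arrays. Adgre1, the gene of F4/80, was at 9.65 to 10.91 on the F4/80+ labels and at 8.59 to 9.72 on the others. Neutrophil markers (8 genes) averaged 12.07 to 12.38 on Eosinophil arrays, 8.48 to 9.78 on Neutrophil arrays, 8.14 to 9.40 on T2M arrays and 7.02 to 8.08 on Macrophage arrays. Macrophage markers (9 genes) averaged 10.74 to 10.88 on Neutrophil arrays, 9.55 to 10.23 on T2M arrays, 8.97 to 9.23 on Eosinophil arrays and 8.86 to 9.14 on Macrophage arrays. Whether labels were exchanged between arrays is not known, and populations are therefore named here by the label of the array only. Marker lists of other cells were averaged on the log2 scale, first on T2M arrays and then elsewhere. Basophil and mast cell markers averaged 4.45 to 6.22 and 3.97 to 4.57, and T cell markers 5.32 to 5.82 and 4.33 to 5.36. B cell markers averaged 6.45 to 6.85 and 5.33 to 7.81, and NK cell markers 6.68 to 7.67 and 6.66 to 8.31. Epithelial markers averaged 8.53 to 9.21 and 6.90 to 8.17, and red cell markers 4.30 to 4.54 and 3.98 to 5.20. Among T2M arrays, replicate 1 was highest in every basophil and mast cell gene, with Cpa3 at 7.97, 3.75 and 6.47 over the 3 arrays. The part of these markers in the results was not tested. The Macrophage pair correlated at 0.994 over all probe sets, against 0.915 to 0.970 for other replicate pairs, and whether it holds 2 pools or 1 RNA on both arrays is not known. Every p-value against Macrophage arrays counts them as 2 samples, and results were also computed with the pair averaged into 1. Neutrophil replicate 2 correlated at 0.954 and 0.953 with the 2 Macrophage arrays, above the 0.915 between the 2 Neutrophil arrays. The part of this likeness in the Neutrophil results was not tested. Actin probes at the 3′ end of the transcript exceeded those at the 5′ end by 0.61 on T2M replicate 1 and by 0.54 on Eosinophil replicate 1, against -0.10 to 0.03 on the other 7 arrays. The same gap between Gapdh probes moved with the labels: it was 2.35 to 3.43 on T2M arrays, 1.09 to 2.41 on Eosinophil arrays, 1.45 to 2.20 on Neutrophil arrays and 1.02 to 1.20 on Macrophage arrays. The part of this gap, widest between T2M and Macrophage arrays, in the differences below was not tested.

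Many cytokine receptors have no kinase of their own and rely on bound JAK kinases such as JAK2, which phosphorylate STAT proteins that then move to the nucleus and switch on genes. STAT6 serves IL-4 and IL-13, STAT3 serves IL-6, IL-10 and G-CSF, and STAT5A and STAT5B serve IL-5, IL-3 and GM-CSF. Among the genes switched on are those of the SOCS family and its member Cish, whose proteins dampen the receptors and kinases again, so that their RNA is commonly read as a mark of recent cytokine signalling.

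STAT dimers are known to bind palindromes of TTC and GAA, and such letters were sought in RefSeq promoter windows (assembly GRCm38.p6, 250 bases before to 50 after the annotated start), which the table gave for 9 of the 10 genes in 12 windows. The pattern TTCNNNGAA, which reads the same on both strands, occurred in the windows of 2 of these genes, Cish and Socs3, and in 8.30% of all 32851 windows. The Cish window held 2 copies, and 0.457% of all windows held 2 or more. The pattern TTCNNNNGAA occurred in 0 member windows and in 6.95% of all windows. The stretches around the matches are shown because Cish and Socs3, on their brightest probe sets, were lowest on the Macrophage arrays in the data below. The windows of Stat3, Socs1 and Pim1 held no match, though these genes also had their lowest label mean on Macrophage arrays, without a call. Socs2 was also lowest there on its brightest probe set. It was the gene without a window and was not searched. Capitals mark the matches. The Cish stretch lies on the plus strand at chr9:107296559-107296678, from 100 bases before the start to base 20 after it, and the Socs3 stretch on the minus strand at chr11:117969367-117969566, the 200 bases before the start.
Cish: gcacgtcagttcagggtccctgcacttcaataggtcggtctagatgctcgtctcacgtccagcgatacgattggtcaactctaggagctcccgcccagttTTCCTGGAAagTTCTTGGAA
Socs3: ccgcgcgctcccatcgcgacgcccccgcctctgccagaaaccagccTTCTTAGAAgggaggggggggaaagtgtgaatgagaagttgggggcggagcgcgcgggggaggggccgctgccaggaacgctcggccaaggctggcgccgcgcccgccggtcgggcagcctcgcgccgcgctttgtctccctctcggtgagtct
The copies in Cish were TTCCTGGAA at bases 1 to 9 and TTCTTGGAA at bases 12 to 20 of the transcript. The copy in Socs3, TTCTTAGAA, lay at bases -154 to -146 from the start. Binding was not measured on these arrays, and a match is a description of the letters only.

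Cish, which encodes an inhibitor induced by STAT5 and acting on its receptors, separated the Macrophage arrays from all others. On probe set 1448724_at, log2 levels were 10.46, 10.74 and 10.56 on the T2M arrays, 10.35 and 11.44 on the Eosinophil arrays, 10.66 and 10.56 on the Neutrophil arrays, and 7.10 and 6.40 on the Macrophage arrays. The lowest of the 7 other arrays stood above both Macrophage arrays, while T2M, Eosinophil and Neutrophil arrays overlapped. Cish was 14.3-fold higher on T2M than on Macrophage arrays (log2 difference 3.84, SE 0.35, limma adjusted p = 0.000673). It was 17.7-fold higher on Eosinophil arrays (4.14, SE 0.39, adjusted p = 0.000513) and 14.5-fold higher on Neutrophil arrays (3.86, SE 0.39, adjusted p = 0.00231) than on Macrophage arrays. With the Macrophage pair counted as 1 sample, the 3 differences kept their call at adjusted p = 0.0102, 0.00677 and 0.0256. Among the other 3 labels no pair passed the test, and the T2M minus Neutrophil difference was -0.03 (SE 0.35, adjusted p = 0.991). In bulk RNA, fewer cells of an expressing type and less RNA per cell cannot be told apart, for Cish and for every gene below.

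Socs3, induced by STAT3 and an inhibitor of IL-6 and G-CSF receptor signalling, had the same outline on 2 of its 3 probe sets. On 1455899_x_at it was at 11.87, 11.27 and 11.14 on T2M arrays, 12.10 and 11.97 on Eosinophil arrays, 11.95 and 11.21 on Neutrophil arrays, and 8.65 and 8.25 on Macrophage arrays. Both Macrophage arrays lay below every other array, and both Eosinophil arrays lay above every T2M array. Socs3 was higher than on Macrophage arrays by 7.90-fold on T2M arrays (2.98, SE 0.32, adjusted p = 0.00117), by 12.0-fold on Eosinophil arrays (3.59, SE 0.35, adjusted p = 0.0006) and by 8.78-fold on Neutrophil arrays (3.13, SE 0.35, adjusted p = 0.00367). Averaging the Macrophage pair left these at adjusted p = 0.0207, 0.00952 and 0.0483. The T2M minus Eosinophil difference of -0.61 (SE 0.32) did not pass (adjusted p = 0.399), but the mean over all Socs3 probe sets gave -1.36 and was called (adjusted p = 0.0191). Without Macrophage replicate 2 the Neutrophil minus Macrophage difference was 2.93 (adjusted p = 0.0595).

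The other 2 Socs3 probe sets did not tell one story. For T2M minus Eosinophil they gave -1.13 (1456212_x_at, adjusted p = 0.140) and -2.33 (1416576_at, adjusted p = 0.184) in the fit over all probe sets. Probe set 1456212_x_at placed T2M above Macrophage arrays by 2.82 (adjusted p = 0.0030 in the fit over all probe sets). Probe set 1416576_at read 6.17, 8.50 and 8.19 on T2M arrays, 8.92 and 10.99 on Eosinophil arrays, 10.78 and 11.02 on Neutrophil arrays, and 7.29 and 6.78 on Macrophage arrays. There T2M and Macrophage arrays overlapped (0.59, adjusted p = 0.604), and all T2M arrays lay below both Neutrophil arrays (-3.28, adjusted p = 0.0826). T2M replicate 1 and Eosinophil replicate 1, the arrays with the actin gap, were the lowest of their labels on this probe set.

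Socs2, induced by STAT5 and known as an inhibitor of growth hormone signalling, was the only 1 of the 10 genes whose difference from T2M was called in more than 1 comparison. On 1418507_s_at it was at 10.85, 10.45 and 10.23 on T2M arrays, 9.17 and 9.94 on Neutrophil arrays, 8.13 and 7.21 on Eosinophil arrays, and 6.89 and 6.53 on Macrophage arrays. The 4 labels did not overlap, and T2M arrays were highest. Socs2 was 7.17-fold higher on T2M than on Eosinophil arrays (2.84, SE 0.37, adjusted p = 0.00654) and 13.9-fold higher than on Macrophage arrays (3.80, SE 0.37, adjusted p = 0.000785). The step from T2M down to Neutrophil arrays was 0.96 (SE 0.37) and did not pass over all genes (adjusted p = 0.240). Eosinophil arrays were 3.70-fold below Neutrophil arrays (-1.89, SE 0.40, adjusted p = 0.0272), and Neutrophil arrays 7.17-fold above Macrophage arrays (2.84, SE 0.40, adjusted p = 0.0100). The last step of the order, Eosinophil over Macrophage arrays, was 0.96 (adjusted p = 0.138). With the Macrophage pair averaged, the T2M differences were kept (adjusted p = 0.0223 and 0.0156), while Eosinophil minus Neutrophil (adjusted p = 0.0595) and Neutrophil minus Macrophage (adjusted p = 0.104) were not. Without Eosinophil replicate 2 the T2M minus Eosinophil difference was 2.38 (adjusted p = 0.0514), and Eosinophil minus Neutrophil was -1.43 (adjusted p = 0.135). Without Neutrophil replicate 2 the latter was -1.50 (adjusted p = 0.0897), and without Macrophage replicate 1 or 2 Neutrophil minus Macrophage was 3.02 (adjusted p = 0.0827) or 2.66 (adjusted p = 0.126). The Eosinophil minus Neutrophil call was kept in 12 of 21 fits: the mean over probe sets gave -1.08 (adjusted p = 0.0753), and it was also lost with array weights (0.101 as adjusted p), in a fit on those labels alone (0.129), with the replicate block (0.0531) and without either Macrophage array (0.0595).

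Of the other Socs2 probe sets, 1449109_at was at 9.90, 10.64 and 10.38 on T2M arrays and at 7.80 and 7.00 on Eosinophil arrays (2.91, adjusted p = 0.0315 over all probe sets). On it, Neutrophil arrays read 7.94 and 9.90, and Macrophage arrays 6.77 and 6.57. T2M and Neutrophil arrays overlapped there, and their difference of 1.38 was not called (adjusted p = 0.273 over all probe sets). Probe set 1446085_at was at 7.01, 7.87 and 8.84 on T2M arrays, 5.09 and 5.41 on Neutrophil arrays, 3.59 and 3.93 on Eosinophil arrays, and 3.73 and 3.64 on Macrophage arrays. T2M was called higher than each other label on it (adjusted p = 0.0383 over Neutrophil, 0.0055 over Eosinophil and 0.0022 over Macrophage arrays). All arrays but those of T2M read below 6, the level taken here as dim, so the sizes of these differences are not given. The remaining 3 Socs2 probe sets were dim, between 2.89 and 6.12 on all arrays, and the calls on 1438470_at and 1442586_at, higher on T2M than on Macrophage arrays, carry the same limit.

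Socs1, induced by interferons and IL-4 and a direct inhibitor of JAK kinases, was not called in any comparison. Its 1 probe set, 1450446_a_at, read 4.30, 5.23 and 5.00 on T2M arrays, 4.57 and 7.47 on Eosinophil arrays, 5.58 and 5.49 on Neutrophil arrays, and 4.96 and 4.58 on Macrophage arrays. A single array, Eosinophil replicate 2, was above 6. No pair of labels passed, with T2M minus Eosinophil at -1.18 (SE 0.72, adjusted p = 0.493). Without Eosinophil replicate 1, the array with the actin gap, that difference was -2.63 (adjusted p = 0.0261) and rested on 1 Eosinophil array.

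**Figure D1:**
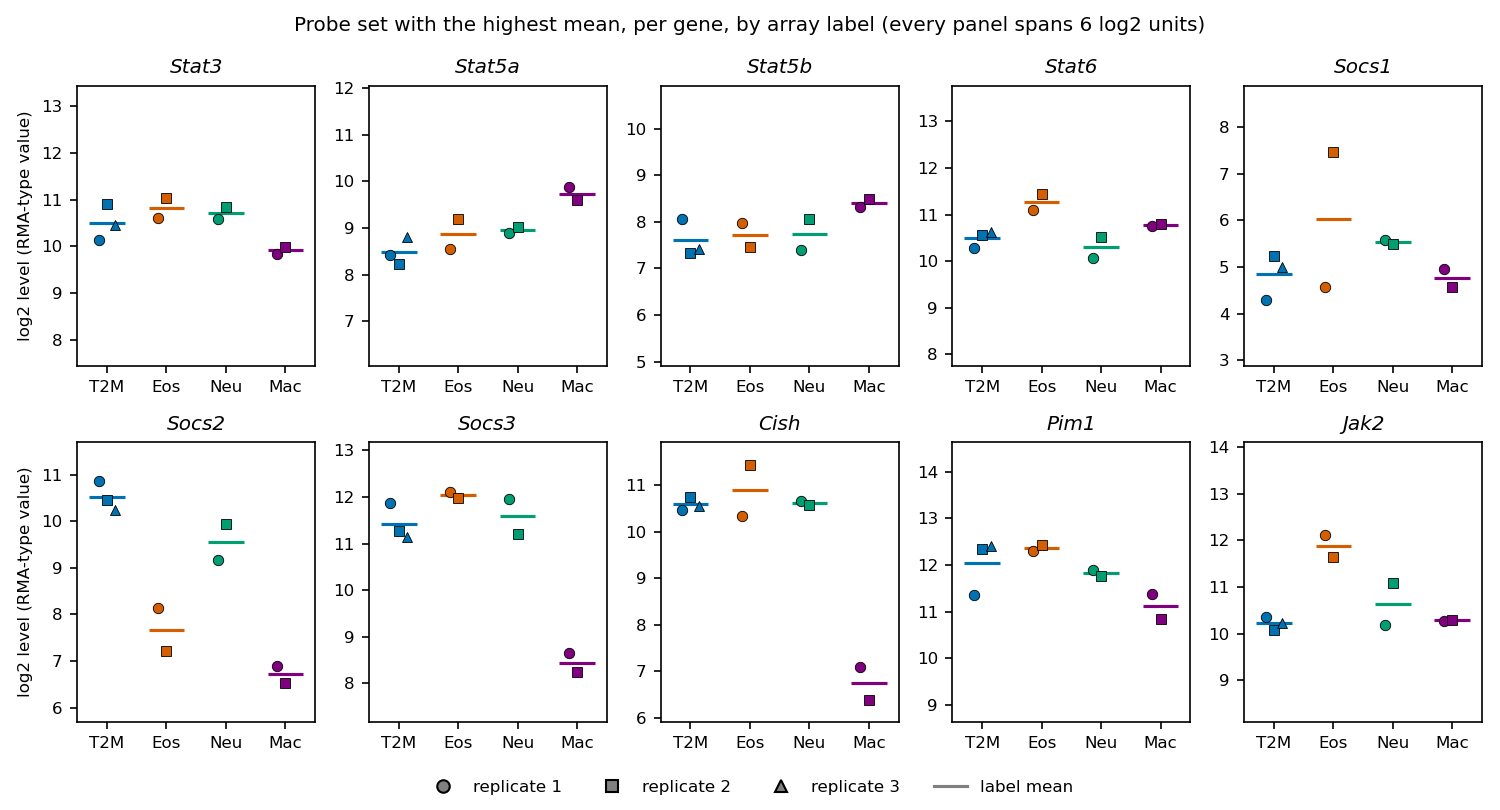
Log2 level of each gene (vertical axis, probe set with the highest mean, each panel spanning 6 log2 units) by array label, with 1 point per array and a bar at the label mean. Cish and Socs3 fall on the Macrophage arrays alone (7.10 and 6.40 for Cish), Socs2 steps down from T2M through Neutrophil and Eosinophil to Macrophage arrays, and the STAT genes span less.

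Of the 4 STAT genes, Stat5a, which carries signals of IL-5, IL-3 and GM-CSF, was the 1 with a called difference on its brightest probe set. On 1421469_a_at it was at 8.42, 8.22 and 8.82 on T2M arrays, 8.54 and 9.18 on Eosinophil arrays, 8.89 and 9.02 on Neutrophil arrays, and 9.87 and 9.60 on Macrophage arrays. Both Macrophage arrays stood above all others, in the opposite sense to Cish and Socs2. Stat5a was 2.38-fold lower on T2M than on Macrophage arrays (-1.25, SE 0.28, adjusted p = 0.0214), and the call was lost with the Macrophage pair averaged (adjusted p = 0.151), after quantile normalization (-0.89, adjusted p = 0.0860), and without T2M replicate 2 or either Macrophage array (adjusted p = 0.0633, 0.199 and 0.110). Probe set 1450259_a_at gave -3.25 (SE 0.87, adjusted p = 0.0475 over all probe sets), from 5.02, 6.78 and 5.27 on T2M arrays to 8.94 on each Macrophage array.

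Stat5b, the close relative encoded by a neighbouring gene, read 8.05, 7.34 and 7.42 on T2M arrays, 7.97 and 7.46 on Eosinophil arrays, 7.40 and 8.06 on Neutrophil arrays, and 8.33 and 8.49 on Macrophage arrays (1422103_a_at). The Macrophage arrays were again highest, and T2M minus Macrophage was -0.80 (SE 0.32, adjusted p = 0.113). On 1422102_a_at that difference was -1.09 and called over all probe sets (adjusted p = 0.0441), as was Eosinophil minus Neutrophil at 1.34 (adjusted p = 0.0480).

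Stat6, which transmits IL-4 and IL-13, had its highest values on the Eosinophil arrays. On 1426353_at it was at 10.28, 10.56 and 10.63 on T2M arrays, 11.10 and 11.44 on Eosinophil arrays, 10.08 and 10.52 on Neutrophil arrays, and 10.76 and 10.79 on Macrophage arrays. Both Eosinophil arrays were above all others. T2M minus Eosinophil was -0.78 (SE 0.24, adjusted p = 0.126) and Eosinophil minus Neutrophil was 0.97 (SE 0.26, adjusted p = 0.0614), so no pair passed. T2M and Macrophage arrays differed by -0.29 (SE 0.24, adjusted p = 0.388).

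Stat3, which transmits IL-6, IL-10 and G-CSF, read 10.13, 10.90 and 10.45 on T2M arrays, 10.61 and 11.03 on Eosinophil arrays, 10.58 and 10.84 on Neutrophil arrays, and 9.84 and 9.99 on Macrophage arrays (1460700_at). The Macrophage arrays were lowest, by 0.57 (SE 0.28, adjusted p = 0.174) against T2M and by 0.90 (SE 0.31, adjusted p = 0.0822) against Eosinophil arrays, and no pair passed. Its probe sets differed on this: T2M minus Macrophage was -0.06 on 1426587_a_at and 0.98 on 1459961_a_at (adjusted p = 0.0930 over all probe sets).

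Jak2, the receptor-bound kinase of IL-5, IL-3, GM-CSF and growth hormone signalling, was highest on the Eosinophil arrays. On 1421066_at it read 10.35, 10.09 and 10.22 on T2M arrays, 12.12 and 11.65 on Eosinophil arrays, 10.18 and 11.08 on Neutrophil arrays, and 10.27 and 10.29 on Macrophage arrays. No array of another label reached the Eosinophil pair. Jak2 was 3.18-fold lower on T2M than on Eosinophil arrays (-1.67, SE 0.30, adjusted p = 0.0217) and 3.04-fold higher on Eosinophil than on Macrophage arrays (1.61, SE 0.33, adjusted p = 0.0135). Eosinophil minus Neutrophil was 1.26 (SE 0.33, adjusted p = 0.0565). The other probe set, 1421065_at, gave -2.30 for T2M minus Eosinophil (adjusted p = 0.0131) and 1.40 for Eosinophil minus Macrophage (adjusted p = 0.0434), both called over all probe sets. Averaging the Macrophage pair ended both calls of 1421066_at (adjusted p = 0.0601 and 0.0970), and so did leaving out the 2 arrays with the actin gap (adjusted p = 0.125 and 0.0778). The T2M minus Eosinophil call was lost in turn without T2M replicate 2, T2M replicate 3 or any 1 array of the Eosinophil and Macrophage pairs (adjusted p from 0.0601 to 0.105), and with the replicate block (-1.67, adjusted p = 0.0920). Also lost was the Eosinophil minus Macrophage call without Eosinophil replicate 1 or either Macrophage array (adjusted p from 0.0765 to 0.102). The Eosinophil arrays also carried the highest neutrophil marker level, 12.07 to 12.38, and the part of that marker difference in the Jak2 result was not tested.

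Pim1, a serine/threonine kinase whose gene is a target of STAT3 and STAT5, was at 11.36, 12.34 and 12.41 on T2M arrays, 12.30 and 12.42 on Eosinophil arrays, 11.89 and 11.76 on Neutrophil arrays, and 11.38 and 10.85 on Macrophage arrays (1435458_at). T2M replicate 1 stood with the Macrophage arrays and the other T2M arrays with the Eosinophil pair. T2M minus Macrophage was 0.92 (SE 0.35, adjusted p = 0.0986) and Eosinophil minus Macrophage 1.25 (SE 0.38, adjusted p = 0.0572), neither past the threshold. Without T2M replicate 1 the first was 1.26 and called (adjusted p = 0.0192), as it was with array weights (0.00495) and without the arrays with an actin gap (0.0277). Eosinophil minus Macrophage was called in 6 of 21 fits (adjusted p from 0.0154 to 0.0472). Probe set 1423006_at gave -0.20 for T2M minus Macrophage (adjusted p = 0.874), with 7.51 on T2M replicate 1 against 10.05 and 9.32 on the other T2M arrays.

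**Figure D2:**
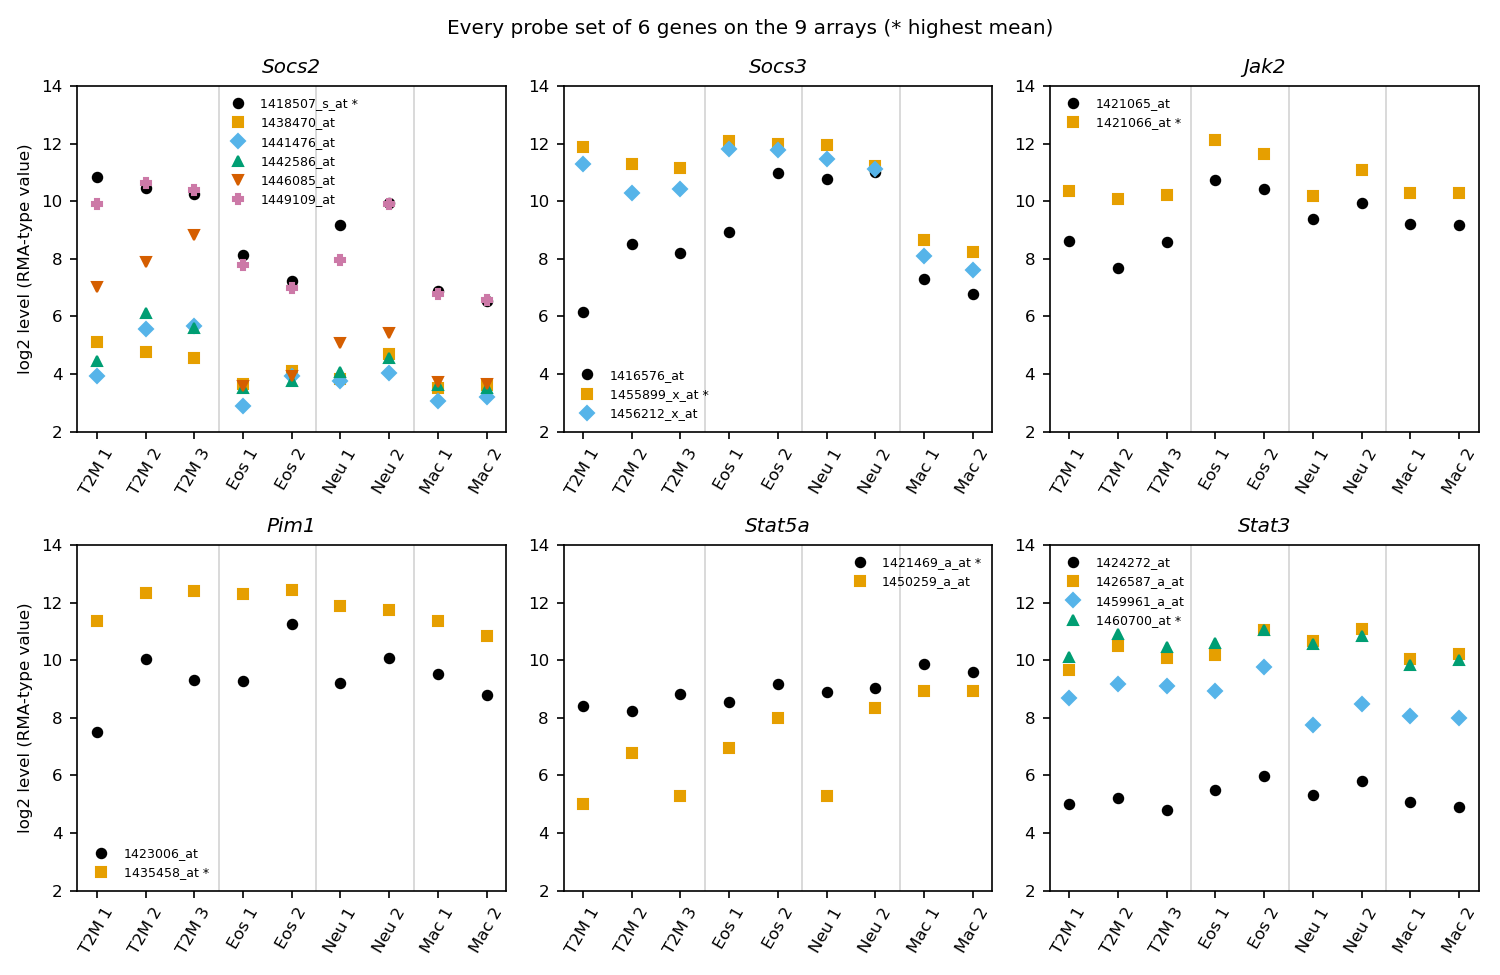
Log2 level of every probe set of Socs2, Socs3, Jak2, Pim1, Stat5a and Stat3 (vertical axis) on each of the 9 arrays (horizontal axis), with 1 symbol per probe set and an asterisk for the one with the highest mean. Socs2 1418507_s_at and 1449109_at share their T2M maximum, whereas Socs3 1416576_at drops to 6.17 on T2M replicate 1, where 1455899_x_at stands at 11.87.

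Low readings on T2M replicate 1 and Eosinophil replicate 1 recurred over the probe sets of these genes. On T2M replicate 1, 7 of the 25 lay more than 1 below the mean of the other T2M arrays, and on Eosinophil replicate 1, 6 lay more than 1 below replicate 2. The same 4 did so on both arrays, and 0 lay more than 1 above on either. They included Pim1 1423006_at (-2.17 and -1.99) and Socs3 1416576_at (-2.18 and -2.07). Both arrays were those with the actin gap, whose part in these gaps was not tested. The counts were not made over all probe sets, so whether they are particular to these genes is not known. Neutrophil replicate 1, without an actin gap, also read below replicate 2 on Stat5a 1450259_a_at (-3.04) and Socs2 1449109_at (-1.96).

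Calls over the 10 genes were set beside the share of all genes called in the same comparison. T2M minus Eosinophil called Socs2 higher and Jak2 lower, 2 of 10, where 4.46% of all genes were called. The median difference was -0.35 over the 10 genes and 0.06 over all genes. T2M minus Neutrophil called 0 of 10 with limma, 1 of them (Socs2) at an unadjusted p under 0.05, where 2.82% of all genes were called. T2M minus Macrophage called Socs2, Socs3 and Cish higher and Stat5a lower, 4 of 10, where 17.2% were called, with medians of 0.32 and 0.18. With the Macrophage pair averaged, 3 of 10 were called. The 3 remaining comparisons called 1 of 10 for Eosinophil minus Neutrophil (background 7.88%), 3 of 10 for Eosinophil minus Macrophage (17.4%) and 3 of 10 for Neutrophil minus Macrophage (2.26%). The comparisons against Macrophage share those 2 arrays and are not independent of each other.

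Among the 25 probe sets, T2M minus Eosinophil called 3 higher and 2 lower (3.16% of all probe sets called) and T2M minus Neutrophil 1 higher and 0 lower (1.79%). T2M minus Macrophage called 8 higher and 3 lower (12.6%). Eosinophil minus Neutrophil called 1 higher and 1 lower (5.68%), Eosinophil minus Macrophage 5 higher and 0 lower (12.9%), and Neutrophil minus Macrophage 4 higher and 0 lower (1.5%).

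**Figure D3:**
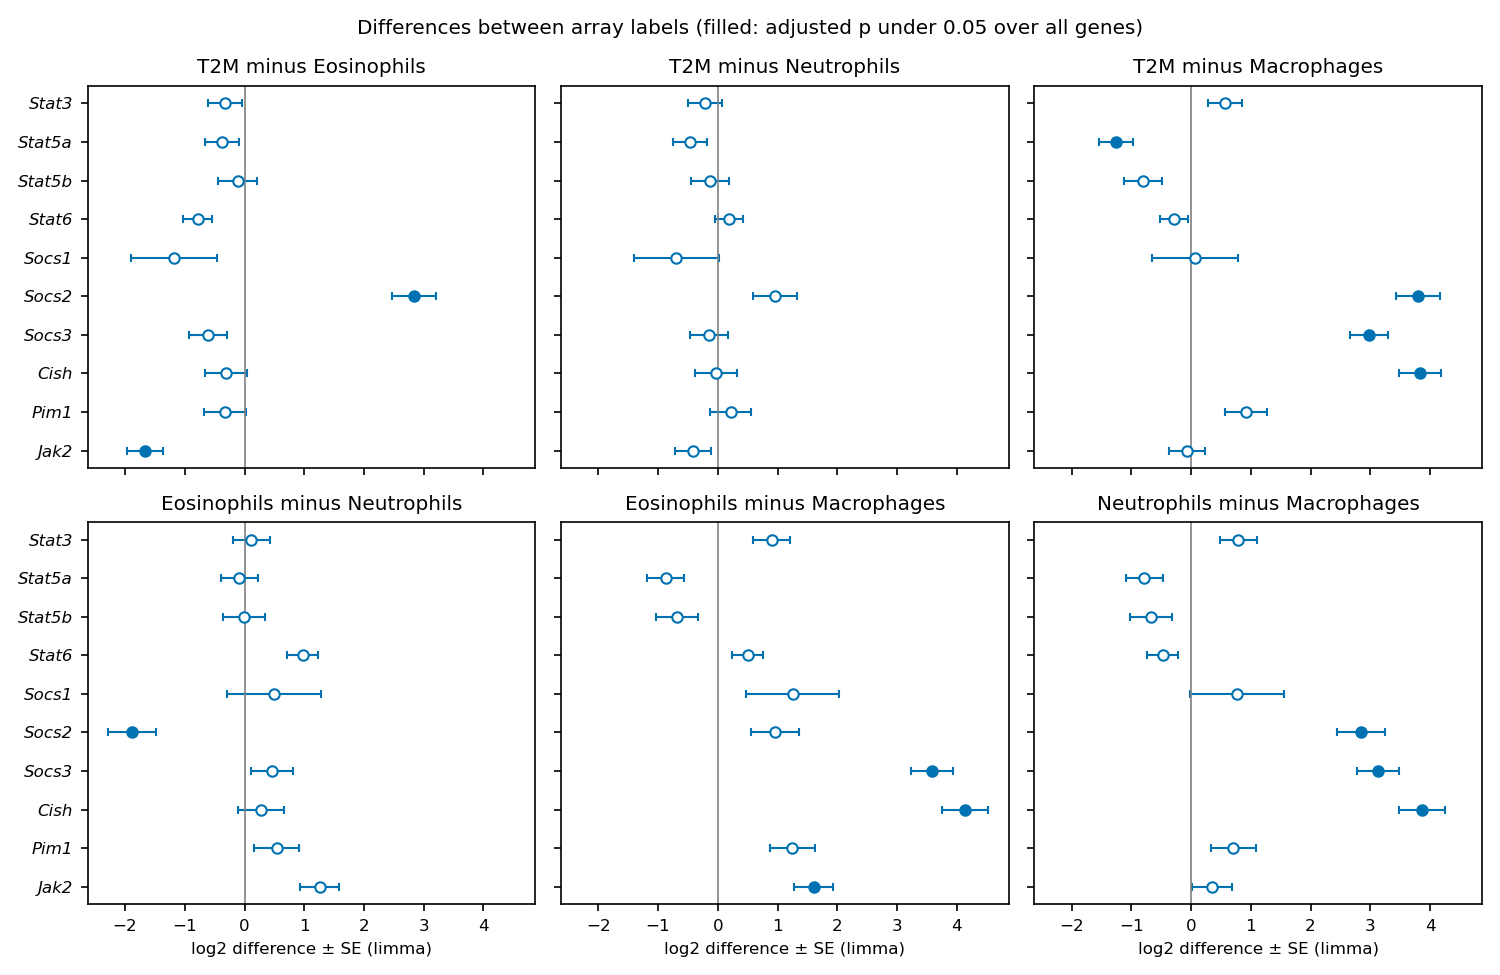
Log2 difference of each gene (horizontal axis, with the SE of limma as the bar) for the 6 pairs of labels, filled where the adjusted p over all genes was under 0.05. In T2M minus Macrophage, Socs2, Socs3 and Cish lie between 2.98 and 3.84 and Stat5a at -1.25; in T2M minus Neutrophil no point is filled.

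Genes whose levels ran most like those of the called genes were taken by Pearson correlation over the 9 arrays, which share their labels. For Socs2 these were Pxdc1 (0.990), Vat1 (0.972) and Clic4 (0.971), and the values stayed at 0.991, 0.960 and 0.962 over the 7 arrays without Macrophages. For Jak2 they were Thap6 (0.971), Aste1 (0.964) and Stat4 (0.960), at 0.968, 0.965 and 0.957 without Macrophages. Cish was most like Pcbd1 (0.982), Il1rn (0.982) and Cxcl3 (0.975), which fell to 0.796, 0.557 and 0.372 without Macrophages. Socs3 ran with Xpnpep2 (0.987), Phlda1 (0.982) and Fosl2 (0.980), at 0.759, 0.697 and 0.731 without them. Stat5a ran with Tepsin (0.968), Zfp740 (0.967) and Kctd10 (0.967), at 0.891, 0.894 and 0.911 without them. Between Cish and Socs3 the correlation was 0.960 over 9 arrays and 0.148 over 7, with both genes low on the Macrophage arrays.

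The wider pathway was described with 115 further genes in lists by role. T2M minus Eosinophil called 11 higher and 16 lower, T2M minus Neutrophil 3 higher and 8 lower, and T2M minus Macrophage 26 higher and 18 lower. List medians were -0.09, -0.16 and 0.26, against 0.06, -0.03 and 0.18 over all genes. With the Macrophage pair averaged, the called totals were 15, 1 and 12 in place of 27, 11 and 44. Single arrays moved these totals as well: without Eosinophil replicate 2, 4 genes were called for T2M minus Eosinophil, and without Neutrophil replicate 2, 3 were called for T2M minus Neutrophil. Alternatives other than leaving out single arrays gave 0 to 13 for T2M minus Neutrophil, with 0 under array weights, a fit on those labels alone and the replicate block. The calls named below are those of the fit on all 9 arrays. Some rested on a label that read below 6, the level taken here as dim, on all its arrays. These were Il6, Il4, Il5ra, Osmr, Alox15, Arg1 and Timp1 on Macrophage, Il4 on Eosinophil, and Il13 and Osmr on Neutrophil arrays. The sizes printed for them are uncertain.

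Of 16 cytokine ligands, 2 were higher on T2M than on Eosinophil arrays: Il4 (3.38, adjusted p = 0.0276), whose reporter the gate selected on, and Il6 (3.06, adjusted p = 0.0288), an activator of STAT3. Against Neutrophil arrays 1 was higher, Il13 (1.33, adjusted p = 0.0386), a STAT6 activator. Against Macrophage arrays 5 were higher and 0 lower, including Il6 (6.49, adjusted p = 0.000673), Osm (3.99, adjusted p = 0.00643) and Il4 (3.79, adjusted p = 0.00828). Osm, a relative of IL-6, was low on the Macrophage arrays alone. It was at 9.05, 11.09 and 10.97 on T2M arrays, 11.20 and 11.95 on Eosinophil arrays, 10.95 and 11.01 on Neutrophil arrays, and 7.08 and 5.68 on Macrophage arrays.

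Of 28 receptor chains, 3 were higher and 6 lower on T2M than on Eosinophil arrays. Lower were Csf3r, the G-CSF receptor (-3.98, adjusted p = 0.0157), Il13ra1 (-2.71, adjusted p = 0.0107) and Il10ra (-2.49, adjusted p = 0.0384), and Il12rb2 was higher (2.44, adjusted p = 0.0152). Csf3r is also 1 of the 8 neutrophil markers that were high on the Eosinophil arrays. Against Neutrophil arrays 1 was higher, the oncostatin M receptor Osmr (2.78, adjusted p = 0.0392), and 4 were lower, among them Lifr (-1.93), Ifngr1 (-1.80) and Il6ra (-1.57). Against Macrophage arrays 7 were higher, among them Il5ra (3.80), Osmr (3.30) and Il7r (2.95), and 4 were lower, among them Il10ra (-2.49).

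Kinases, transcription factors and inhibitors beside the 10 genes were taken by list. Over all genes, 4.46% were called for T2M minus Eosinophil, 2.82% for T2M minus Neutrophil and 17.2% for T2M minus Macrophage. Stat4, which serves IL-12, was lower on T2M than on Eosinophil arrays (-1.95, adjusted p = 0.0149), and Stat2, which serves type I interferon, was lower than on Macrophage arrays (-1.66, adjusted p = 0.0397). Among Jak1, Jak3 and Tyk2, the 1 call with T2M was Tyk2 against Macrophage arrays (-1.06, adjusted p = 0.0179). Of Socs4, Socs5, Socs6 and Socs7, Socs7 was higher on T2M than on Eosinophil arrays (1.46, adjusted p = 0.0102), and 0 were called against the other labels. Pim2, a relative of Pim1, was higher on T2M than under each other label. It was at 8.15, 8.57 and 8.95 on T2M arrays, 7.19 and 6.62 on Eosinophil arrays, 6.33 and 6.83 on Neutrophil arrays, and 6.79 and 6.97 on Macrophage arrays. T2M did not overlap with any of them, with differences of 1.65 (adjusted p = 0.0260), 1.98 (adjusted p = 0.0218) and 1.68 (adjusted p = 0.0115). Of 13 phosphatases, PIAS proteins and adaptors that restrain the pathway, Cbl (-1.82), Ptpn6 (-1.43) and Pias2 (-1.05) were lower on T2M than on Macrophage arrays, and Dusp3 (1.39) was higher than on Eosinophil arrays.

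Target genes were sorted by the STAT protein they are known for. Of 16 STAT6 targets, 7 were higher and 2 lower on T2M than on Macrophage arrays, led by Alox15 (7.72, adjusted p = 0.000177), Arg1 (5.56, adjusted p = 0.000139), Ccl17 (3.39) and Retnla (3.09), genes of alternative activation. Against Eosinophil arrays 2 were higher, Alox15 (2.97) and Clec10a (2.00), and 0 lower, and against Neutrophil arrays 0 were higher and 2 lower, Ccl24 (-3.32) and Irf4 (-1.40). Of 12 STAT5 targets beside Cish, Socs2 and Pim1, 3 were higher and 3 lower on T2M than on Macrophage arrays. The higher ones included Osm (3.99), and the lower ones were Ccnd3 (-2.96), Bcl6 (-2.43) and Ccnd1 (-2.23). Against Eosinophil arrays Bcl2 was higher (1.56) and Id1 (-2.78), Spry2 (-2.49) and Bcl6 (-2.46) were lower. Against Neutrophil arrays 0 of the 12 were called. The part of STAT5 in the Socs2 levels was not tested.

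Of 15 STAT3 targets, 5 were higher and 0 lower on T2M than on Macrophage arrays, among them Saa3 (4.04), Timp1 (3.68) and Il1rn (3.50). Nfil3 (-1.55) and Icam1 (-1.21) were lower than on Eosinophil arrays, and Nfil3 (-1.46) was lower than on Neutrophil arrays.

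**Figure D4:**
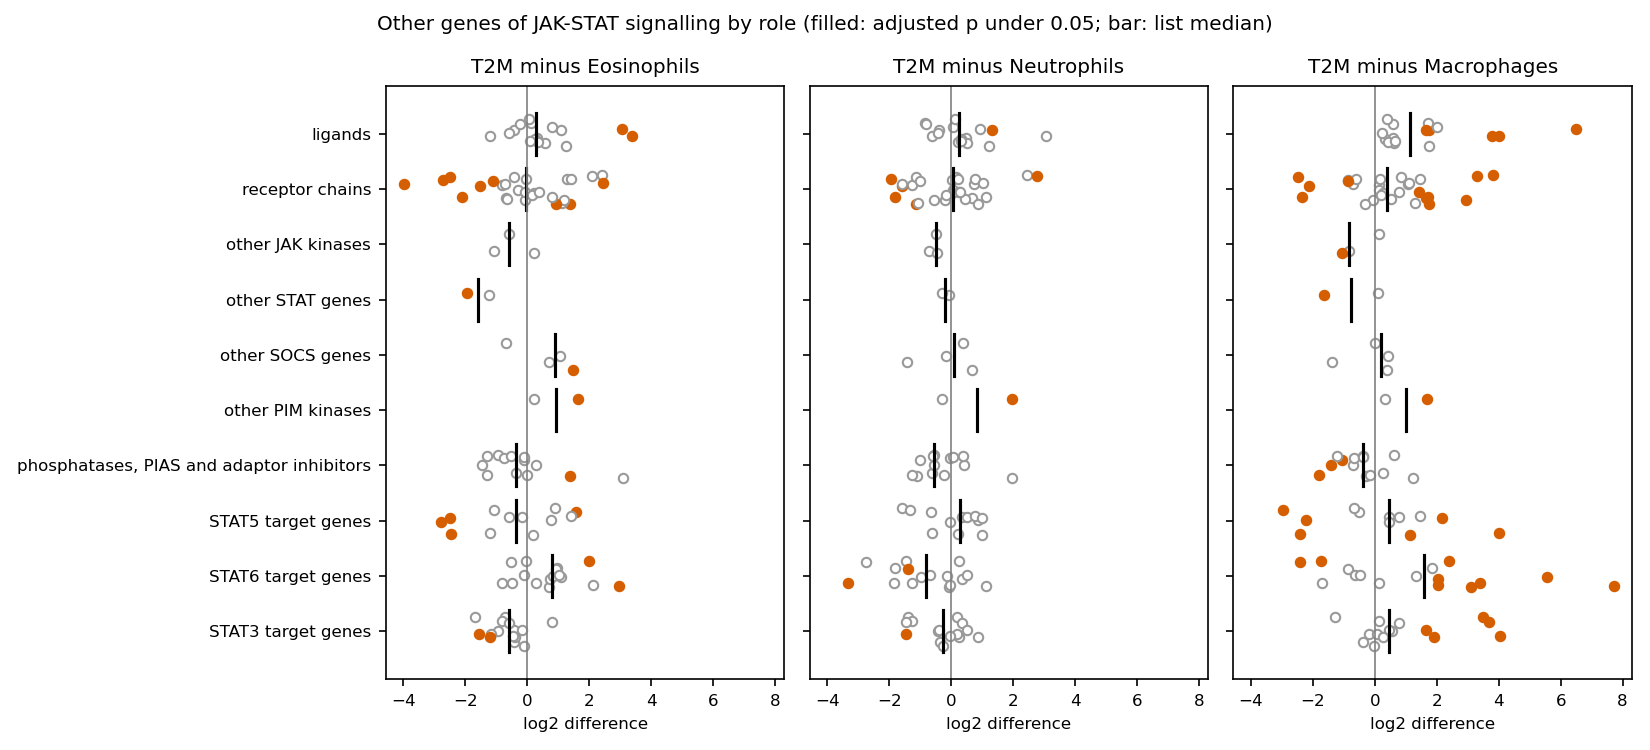
Log2 difference (horizontal axis) of the other genes of the pathway, in 10 lists by role, for T2M minus Eosinophil, Neutrophil and Macrophage arrays, with 1 point per gene, filled where called, and a bar at the list median. Ligands hold filled points above 0 only (2, 1 and 5), and STAT3 targets hold 5 filled points above 0 against Macrophage arrays.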

How the data were processed

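Values were the authors' deposited log2 expression values, 1 column per array and 1 row per probe set, made with RMA, affy and limma per the submitters' processing notes, with further settings not given in the sources used here. The table held 45101 probe sets, of which 64 controls were left out. For each of 18193 genes with a probe set of 1 symbol (platform annotation, checked against RefSeq GRCm38.p6), the probe set of highest mean across the 9 arrays stood for the gene. R 4.3.3 with limma 3.58.1 was used to compare labels (lmFit, eBayes, two-sided) on all 9 arrays, with 5 residual degrees of freedom. Calls were made where the Benjamini-Hochberg adjusted p, taken over the 18193 genes in each comparison, was under 0.05. Calls of the other probe sets come from the same fit over 45037 probe sets. Each log2 unit was taken to be 2-fold, and differences are first label minus second. The script was tested on simulated data.

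The 10 genes and all lists were chosen with earlier results of these data known. From the role lists, which hold 119 genes of which 115 were measured, up to 4 called and 2 uncalled genes with the largest differences were eligible per comparison, and the text prints part of them. The genes of 1 list count in the totals, but that list is not reported here. Like genes are the 3 with the highest correlation. The 9 arrays limit the precision, and the tests treat every array as its own pool, as labelled. Alternatives changed the probe sets used, the filter, the scaling, the moderation, array weights, the samples, the replicate block and single arrays. Promoter windows came from RefSeq. Plots used Python 3.11.15 and matplotlib 3.10.9.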

Additional observations from a re-analysis of the deposited data

How the results depend on the processing

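The 13 called differences of the 10 genes kept their direction in all 280 fits under the alternatives run and their call in 246. Fits that left out an array of another label, or changed only the filter, the moderation or the labels fitted, reused the same differences. In those fits the direction could not change. Called in every fit run for them were Cish against Macrophage arrays for T2M, Eosinophil and Neutrophil arrays, Socs3 for T2M and Eosinophil arrays, and Socs2 for T2M arrays. Jak2 lost its T2M minus Eosinophil call and Socs2 its Eosinophil minus Neutrophil call in 9 of 21 fits each, and Stat5a its T2M minus Macrophage call in 5 of 22. Leaving out single arrays gave 0 to 2 genes called for T2M minus Eosinophil, 0 to 0 for T2M minus Neutrophil, 3 to 5 for T2M minus Macrophage, 0 to 2 for Eosinophil minus Neutrophil, 2 to 4 for Eosinophil minus Macrophage and 1 to 3 for Neutrophil minus Macrophage. An arm left with 1 array was assumed to vary like the others. The mean over all probe sets of a gene gave 1 call for T2M minus Neutrophil (Socs3, -1.34). For Eosinophil minus Neutrophil, a common median gave 2 calls, quantile normalization 3, array weights 0, a fit on those labels alone 0, the averaged Macrophage pair 0 and leaving out the arrays with an actin gap 2. Array weights gave 7 calls for T2M minus Macrophage and 7 for Eosinophil minus Macrophage, for which a fit on those labels alone gave 5. Averaging the Macrophage pair gave 1 for T2M minus Eosinophil. The causes of these changes were not tested. The averaged pair, the crossed numbers, and leaving out the Eosinophil arrays or the arrays with an actin gap were chosen after seeing the data.

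As to pairing, deviations of same-numbered arrays correlated at 0.50 and 0.44 for T2M with Eosinophils. For all other pairs of labels they correlated at -0.18 to 0.05. Between labels of 2 arrays each, both values are equal by construction and are not separate checks. Whether the numbers mark shared pools or days is therefore not known. The replicate block, which in effect drops T2M replicate 3, gave 1 call for T2M minus Eosinophil, with Jak2 lost, and 0 for Eosinophil minus Neutrophil, with Socs2 lost. With the Neutrophil numbers crossed, the block gave 2, 0, 4, 1, 3 and 3 calls over the 6 comparisons. Both forms gave -0.0082 for Socs1 in T2M minus Macrophage.

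Of 1004 fits of the 47 uncalled differences, 29 gained a call, mainly Pim1 against Macrophage arrays (9), Socs1 (5) and Stat6 in Eosinophil minus Neutrophil (4), and 19 of the 47 changed sign at least once. The mean over probe sets gave 0.019 for Stat5b and -0.23 for Pim1 in T2M minus Neutrophil, and 0.28 for Stat5a and 0.66 for Stat5b in Eosinophil minus Neutrophil. A common median gave -0.074 for Socs1 in T2M minus Macrophage and 0.048 for Stat5b in Eosinophil minus Neutrophil. Quantile normalization gave 0.046 for Stat5b, 0.077 for Socs3 and 0.16 for Cish in T2M minus Neutrophil, -0.20 for Socs1 and 0.21 for Jak2 in T2M minus Macrophage, and 0.093 for Stat5b in Eosinophil minus Neutrophil. Without the arrays with an actin gap, Cish was 0.038 in T2M minus Neutrophil and Stat5a 0.23 in Eosinophil minus Neutrophil. Leaving out single arrays, T2M minus Eosinophil ran from -0.37 to 0.14 for Stat5b, -2.63 to 0.27 for Socs1, -0.85 to 0.24 for Cish and -0.51 to 0.015 for Pim1. T2M minus Neutrophil ran from -0.46 to 0.20 for Stat5b, -0.030 to 0.41 for Stat6, -0.52 to 0.22 for Socs3, -0.10 to 0.038 for Cish and -0.86 to 0.039 for Jak2. T2M minus Macrophage ran from -0.12 to 0.34 for Socs1 and -0.13 to 0.0034 for Jak2. Eosinophil minus Neutrophil ran from -0.10 to 0.32 for Stat3, -0.41 to 0.23 for Stat5a, -0.34 to 0.32 for Stat5b, -0.96 to 1.93 for Socs1 and -0.27 to 0.83 for Cish. Socs1 ran from -0.20 to 2.70 in Eosinophil minus Macrophage, and Jak2 from -0.10 to 0.80 in Neutrophil minus Macrophage. Signal near background limits Socs1, Socs2 1446085_at outside T2M arrays, the 3 dim Socs2 probe sets and the pathway genes listed above as dim.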
